A study of Mus musculus with 12 samples.

Results

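De novo lipogenesis is the pathway by which the liver turns sugar and other carbon into fatty acids. Cytosolic acetyl-CoA is made from citrate, carboxylated to malonyl-CoA and built into palmitate, which is then elongated and desaturated for storage in triglyceride or for use in membranes. In liver the pathway is driven by insulin through SREBP-1c and by glucose through ChREBP, and it is known to be raised in many liver tumors. The 10 genes described here are the enzymes Fasn, Acaca, Acacb, Acly, Scd1, Elovl6 and Me1, the transcription factor genes Srebf1 and Mlxipl, and Thrsp, a lipogenic protein that responds to thyroid hormone. They were chosen by name for their place in the pathway, and all 10 were found by Entrez identifier among the 26301 genes of the count table.

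Poly(A) RNA was sequenced from 12 livers or tumors of adult mice, and all 12 libraries had more Y-linked than Xist counts, as in males. The 4 control libraries were made from wild-type livers without tumors. The 4 libraries labelled DKO were made from spontaneous liver tumors with conditional deletion of E2f7 and E2f8 by Alb-Cre, and the 4 labelled TKO from tumors with conditional deletion of Rb1 in addition. Alb-Cre is driven by the albumin promoter, so recombination is directed to hepatocytes, and the other cells of a tumor keep the genes. Atypical E2Fs, encoded by E2f7 and E2f8, repress E2F target genes, and RB, encoded by Rb1, restrains the activating E2Fs. The comparisons ask how the pathway differs between tumors of either genotype and liver, and between tumors with and without the additional loss of RB.

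Total counts per library were 9165812 to 16424973, and albumin took 4.82% to 22.7% of them. Levels of a gene between libraries are given as CPM, counts scaled to the library's total as normalized by edgeR's TMM method. Rb1 was at 3.20 to 5.47 CPM in the 4 TKO libraries, below all 8 others (6.51 to 11.3 CPM). E2f7 had 4 to 24 counts and overlapped between the groups, and E2f8 was at 4.52 to 8.97 CPM in the control livers and 7.58 to 52.2 CPM in the tumors. Since a count over a whole gene includes exons outside a deleted part, these values do not check the labels. The defining markers of hepatocytes were high in all 12 libraries, with a summed level of 50983 to 327984 CPM over 7 genes led by Alb. The markers of hepatocyte zones differed strongly between tumors. The 8 pericentral markers, led by Cyp2e1, summed to 8786 to 14320 CPM in the control livers, but to 27594 CPM in DKO 4 and 36317 CPM in TKO 4, and to only 1062, 1663 and 2002 CPM in DKO 1, TKO 2 and TKO 1. The sum follows its most abundant genes. DKO 2, inside the control range by the sum, shared with DKO 4 and TKO 4 a high level of Axin2, 1 of the 8 markers. Axin2 was at 41.2 to 75.0 CPM in these 3 and 2.53 to 9.96 in the other 9 libraries. The 8 markers did not all place DKO 2 high. Oat, another of them, was lower in DKO 2 than in any control liver (686 to 1078 CPM), with a DKO median of 336 CPM and 5991 CPM in DKO 4. In bulk tissue, fewer cells that express a gene and less RNA of it per cell cannot be told apart.

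The members together took 0.306% to 0.861% of all counts in the control livers (median 0.479%), 0.607% to 1.21% in DKO (median 0.866%) and 0.331% to 0.845% in TKO (median 0.648%). The ranges of the groups overlapped. Scd1 alone supplied 49.5% to 81.0% of the members' counts. Levels of different genes were compared as RPKM, in which CPM is divided by the exon length in kilobases. In the control livers the order of mean RPKM was Scd1 (711 ± 332, SD, n = 4), Thrsp (620.3 ± 327), Srebf1 (53.9 ± 22.7), Acly (41.7 ± 13.7), Fasn (41.1 ± 20.2), Me1 (28.5 ± 7.38), Mlxipl (15.6 ± 4.33), Elovl6 (13.6 ± 6.21), Acaca (5.69 ± 2.16) and Acacb (2.27 ± 0.923). Within that order, only the steps from Thrsp to Srebf1, from Me1 to Mlxipl and from Elovl6 to Acaca were between genes whose 4 values did not overlap. In DKO the order began with Scd1 at 1385 ± 339 RPKM, which no longer overlapped with Thrsp at 266 ± 174 RPKM.

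**Figure D1:**
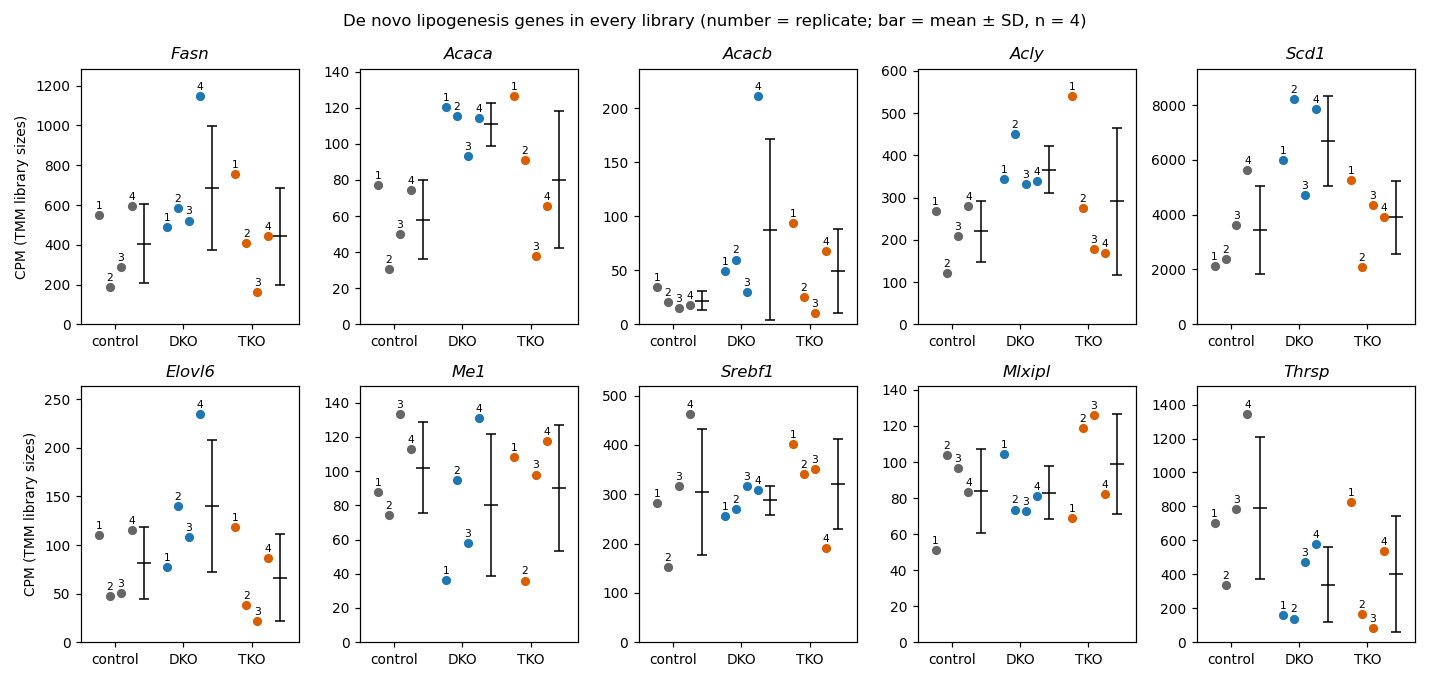
CPM (TMM library sizes, linear axis from 0) of the 10 genes in the 4 control livers, 4 DKO tumors and 4 TKO tumors; numbers are the replicates and bars the mean ± SD of 4 libraries. Acaca and Acly lie higher in all 4 DKO tumors than in any control liver, DKO 4 stands high for Fasn, Acacb and Elovl6, and the other genes overlap between DKO and control livers.

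Compared with the control livers, the mean CPM of Acly, Acaca, Acacb, Fasn, Elovl6 and Scd1 was higher in DKO. The means of Thrsp and of Me1 (102 CPM in the control livers and 80.1 in DKO) were lower. These differences were less than the test across all genes could tell from the spread between libraries. The means of Srebf1 and Mlxipl were nearly equal in both groups. edgeR's quasi-likelihood test with Benjamini-Hochberg adjustment called 336 of 13882 genes at 0.05 in DKO, which is 2.42% of those tested, and it called 0 of the 10 members. The unadjusted p was under 0.05 for 3 members, Acaca, Acacb and Scd1, where 24% of all tested genes were under it. The members' median log2 fold change was 0.75, beside 0.02 for all tested genes, and 6 of the 10 were positive. That median was 0.40 without DKO 4.

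The early steps of the pathway were examined first. Acly makes cytosolic acetyl-CoA from citrate. It lies on chromosome 11 from 100337667 to 100389314 (mm9) and is Entrez 104112. Its CPM was 268, 122, 209.7 and 280.4 in control livers 1 to 4, 344, 450.3, 332 and 339 in DKO 1 to 4, and 541, 276, 178 and 169 in TKO 1 to 4. All 4 DKO values were above all 4 control values, and the TKO values spanned both groups. In DKO the log2 fold change was 0.74 (standard error 0.364), and it did not pass edgeR's test (adjusted p = 0.243). Acaca encodes acetyl-CoA carboxylase 1, the cytosolic enzyme that makes the malonyl-CoA used for synthesis (Entrez 107476, chromosome 11 from 83943174 to 84215153). Its CPM was 77.3, 30.5, 50.03 and 74.3 in the control livers, 120.4, 116, 93.4 and 114 in DKO, and 127, 90.9, 37.9 and 65.4 in TKO. The DKO tumors were again all above the control livers and lay close together, with a coefficient of variation of 10.8% against 38.0% in the control livers and 47.1% in TKO. For Acaca the log2 fold change in DKO was 0.93 (standard error 0.345, 95% interval 0.18 to 1.68, adjusted p = 0.127 by edgeR). With limma's voom and sample quality weights it was 1.09 with an adjusted p of 0.0412, and no other setting called Acaca. Acly and Acaca were thus 2 of 10 members whose DKO and control values did not overlap, where 16.2% of all tested genes did not overlap (8.87% with DKO higher).

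Acacb encodes acetyl-CoA carboxylase 2, the form on the mitochondrial outer membrane whose malonyl-CoA limits fatty acid import (Entrez 100705, chromosome 5 from 114596544 to 114700770). Its CPM was 34.7, 20.8, 14.6 and 17.5 in the control livers, 49.6, 59.9, 29.9 and 211 in DKO, and 94.0, 24.9, 10.1 and 68.0 in TKO. DKO 4 stood far above the others, and DKO 3 was below the highest control liver, so the groups overlapped. Acacb had the largest log2 fold change of the members in DKO, 2.00 (standard error 0.702, 95% interval 0.48 to 3.53), and edgeR's adjusted p was 0.114. DESeq2, the tool named in the study's methods, gave 2.00 as well with an adjusted p of 0.0282. Without DKO 4 the edgeR log2 fold change was 1.09 (adjusted p = 0.305). Across all genes DESeq2 called 1518 genes in DKO, 10.4% of those with an adjusted p, and Acacb was the 1 member among them.

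The carboxylase pair did not keep one ratio. The log2 ratio of Acacb to Acaca counts was -1.16, -0.55, -1.77 and -2.09 in the control livers, -1.28, -0.95, -1.64 and 0.89 in DKO, and -0.43, -1.87, -1.90 and 0.05 in TKO. Acacb counts exceeded Acaca counts in DKO 4 and TKO 4 and in no other library. This ratio was picked out after its values were seen. DKO 4 and TKO 4 were also the libraries with the highest pericentral sums, given above, and with the lowest periportal sums (4 markers led by Cyp2f2), at 116 and 284 CPM against 755 to 2838 CPM in the other 10. TKO 1, with the second highest Acacb level of 94.0 CPM, had a pericentral sum of 2002 CPM. DKO 2, with high Axin2 as well, had a ratio of -0.95. The part of these markers in the ratio was not tested.

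Fasn encodes fatty acid synthase, which builds palmitate (Entrez 14104, chromosome 11 from 120667254 to 120685492). Its CPM was 551, 188, 286 and 595 in the control livers, 489.8, 583, 522 and 1149 in DKO, and 757, 409, 163 and 442 in TKO. Only DKO 4 was above the highest control liver in DKO and only TKO 1 in TKO. In log2 terms Fasn differed by 0.76 in DKO (standard error 0.476, 95% interval -0.27 to 1.79, adjusted p = 0.354 by edgeR), and 0.39 without DKO 4. Elovl6 extends palmitate to stearate (Entrez 170439, chromosome 3 from 129235304 to 129341413). Its CPM was 110.2, 47.5, 51.0 and 116 in the control livers, 77.2, 139.9, 108 and 235 in DKO, and 119, 38.3, 21.6 and 86.4 in TKO. It followed Fasn closely from library to library, and DKO 4 was again the highest of all 12. Its log2 fold change was 0.79 in DKO (standard error 0.513, adjusted p = 0.374 by edgeR) and 0.42 without DKO 4.

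Scd1 encodes the main liver stearoyl-CoA desaturase, which makes oleate and palmitoleate (Entrez 20249, chromosome 19 from 44468941 to 44482199). Its CPM was 2125, 2372, 3622 and 5638 in the control livers, 5991, 8215, 4722 and 7854 in DKO, and 5259, 2102, 4335 and 3914 in TKO. DKO 1, DKO 2 and DKO 4 exceeded every control liver, and DKO 3 was below the highest of them. Scd1 had a log2 fold change of 0.96 in DKO (standard error 0.401, 95% interval 0.089 to 1.83, adjusted p = 0.168 by edgeR, 0.0587 by DESeq2). In TKO it was 0.18 (standard error 0.398). Me1 encodes cytosolic malic enzyme, a source of the NADPH that synthesis consumes (Entrez 17436, chromosome 9 from 86474970 to 86589947). Its CPM was 87.7, 74.2, 133 and 113 in the control livers, 36.4, 94.98, 58.1 and 131 in DKO, and 108, 36.0, 98.0 and 118 in TKO. DKO 1, DKO 3 and TKO 2 were below every control liver, and the log2 fold changes of -0.35 in DKO and -0.18 in TKO did not pass (standard error 0.406 for both, adjusted p = 0.635 and 0.869 by edgeR).

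The genes for the transcription factors of the pathway had the log2 fold changes nearest to 0 in DKO. Srebf1 encodes SREBP-1, and a count over the gene cannot separate SREBP-1a from SREBP-1c (Entrez 20787, chromosome 11 from 60012591 to 60036083). Its CPM was 283, 152, 317 and 463 in the control livers, 256, 269.5, 317 and 308 in DKO, and 402, 342, 351 and 190.0 in TKO. Every tumor of either genotype fell within the range of the control livers. The log2 difference was -0.08 in DKO (standard error 0.304, 95% interval -0.74 to 0.58) and 0.08 in TKO (standard error 0.303, 95% interval -0.58 to 0.74). Mlxipl encodes ChREBP (Entrez 58805, chromosome 5 from 135582761 to 135614254). Its CPM was 51.3, 104, 96.5 and 83.5 in the control livers, 104, 73.6, 72.6 and 81.2 in DKO, and 68.9, 119, 126 and 82.3 in TKO. TKO 2 and TKO 3 were above the control livers and both groups overlapped with them. The log2 difference was -0.02 in DKO (standard error 0.245, 95% interval -0.55 to 0.52) and 0.24 in TKO (standard error 0.245, 95% interval -0.29 to 0.77). These intervals leave room for changes of moderate size in either gene, and transcript levels do not measure the processing of SREBP-1 or the activity of ChREBP.

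Thrsp, also called Spot 14, is a small protein that accompanies lipogenic enzymes in liver and responds to thyroid hormone, carbohydrate and the time of day (Entrez 21835, chromosome 7 from 104561448 to 104566240). Its CPM was 702, 336, 785 and 1345 in the control livers, 162, 139, 474 and 581 in DKO, and 825, 166, 81.8 and 534 in TKO. DKO 1, DKO 2, TKO 2 and TKO 3 were below every control liver and the other 4 tumors were within the control range. Thrsp had a log2 fold change of -1.22 in DKO (standard error 0.696, 95% interval -2.74 to 0.29, adjusted p = 0.305 by edgeR) and -0.98 in TKO (standard error 0.692, adjusted p = 0.516). Thrsp was lower in the tumors when set against Fasn. The log2 ratio of Thrsp to Fasn counts was 0.35, 0.83, 1.46 and 1.18 in the control livers, -1.59, -2.07, -0.14 and -0.98 in DKO, and 0.12, -1.30, -0.998 and 0.28 in TKO. All 8 tumors were below the lowest control liver. This ratio was picked out after its values were seen, so it is given as a description, with no test.

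**Figure D2:**
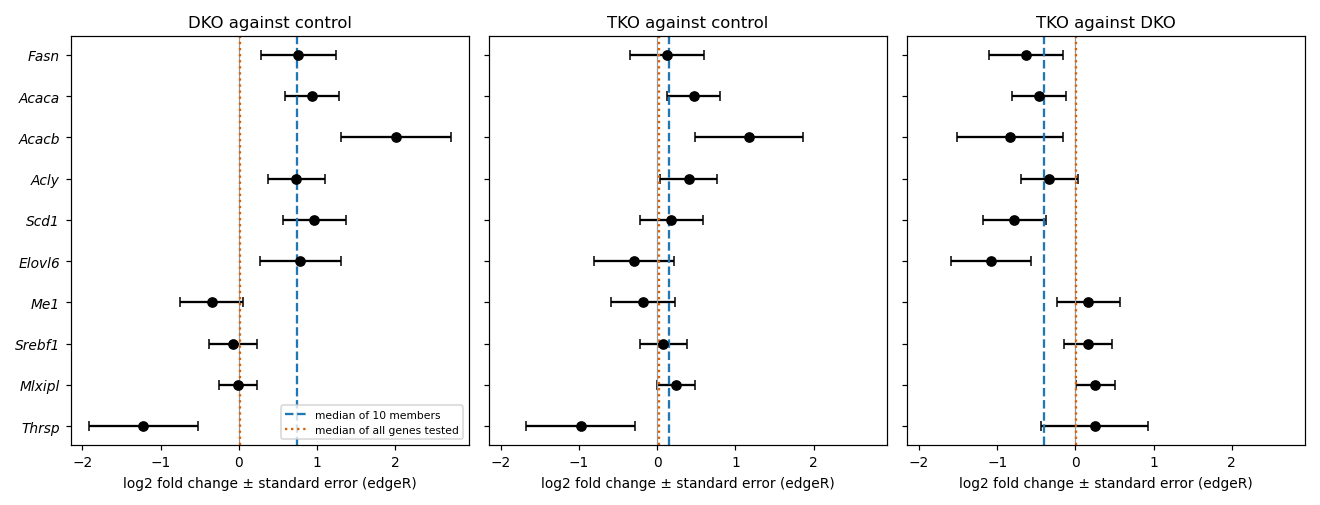
Log2 fold change with its standard error (edgeR, all 12 libraries in the fit) of the 10 genes in each of the 3 comparisons; the dashed line is the members' median and the dotted line the median of all 13882 tested genes. In DKO the enzymes from Fasn to Elovl6 lie around 0.74 to 2.00 and Thrsp at -1.22, and in TKO against control the values run from -0.98 to 1.17.

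In TKO against the control livers, the values were nearer to 0 for most members. edgeR called 12 genes, 0.0864% of those tested, and 0 of the 10 members, and 0 members had an unadjusted p under 0.05 (16.3% of all genes). DESeq2 called 507 genes, 3.49%, and 0 members. The members' log2 fold changes were 1.17 for Acacb (standard error 0.688, adjusted p = 0.427 by edgeR), 0.47 for Acaca, 0.40 for Acly, 0.13 for Fasn and -0.29 for Elovl6, and the adjusted p of the 10 members ran from 0.427 to 0.929. Their median was 0.16, beside 0.02 for all tested genes, and it ran from -0.07 to 0.37 when each library in turn was left out, with the lowest value without TKO 1. With a library left out, Acacb ran from 0.64 (without TKO 1) to 1.51 (without TKO 3), Acaca from 0.15 to 0.70 without the same libraries, and Thrsp from -1.61 (without TKO 1) to -0.60 (without control 4). The TKO tumors were themselves far apart. TKO 1 had the highest Acaca and Acly of all 12 libraries, and TKO 3 had the lowest Fasn, Acacb, Elovl6 and Thrsp. The values of 0 of the 10 members were apart from the control values, where 7.67% of all genes were. The same 4 control livers stood in this comparison and in that of DKO.

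The direct comparison of TKO with DKO asks how tumors with the added deletion of Rb1 differ. The study reports a shorter tumor latency in TKO than in DKO mice. The deletion and the age of the mice therefore cannot be told apart here. edgeR called 0 of 13882 genes (0%), with 1250 genes (9%) at an unadjusted p under 0.05, and 0 of the members by either measure. DESeq2 called 56 genes, 0.398%, and 0 members. Of the 10 members, 6 had a negative log2 fold change, -1.08 for Elovl6 (standard error 0.515, 95% interval -2.20 to 0.042, adjusted p = 0.566 by edgeR), -0.83 for Acacb, -0.78 for Scd1, -0.63 for Fasn, -0.47 for Acaca and -0.33 for Acly. The value was between 0.16 and 0.26 for Me1, Srebf1, Mlxipl and Thrsp. The median was -0.40, and -0.09 without DKO 4. All 10 members overlapped between the genotypes, where 4.87% of all genes did not.

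Members were then compared with each other across the 12 libraries, as Pearson's r of log2 CPM. These correlations are descriptions, since the libraries share groups and scaling. Of 45 pairs, 32 were positive, and the median r was 0.300. After the group means were removed, 34 were positive with a median of 0.382. The closest pairs were Acaca with Acly (r = 0.919, 0.882 within groups) and Fasn with Elovl6 (0.911, 0.926 within groups). Scd1 was at 0.491 (with Acacb) to 0.578 (with Acly) with Fasn, Acaca, Acacb, Acly and Elovl6. Pairs among these enzymes were at 0.551 (Acacb with Acly) or more, so the values overlapped. Within groups Scd1 was at 0.165 to 0.382 with them, and their own pairs were at 0.343 or more. Thrsp followed Fasn within groups (0.804) more than across them (0.453). Mlxipl went the other way from the enzymes, with r from -0.746 with Elovl6 to -0.084 with Srebf1, and it was negative with all 9 others both across and within groups.

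**Figure D3:**
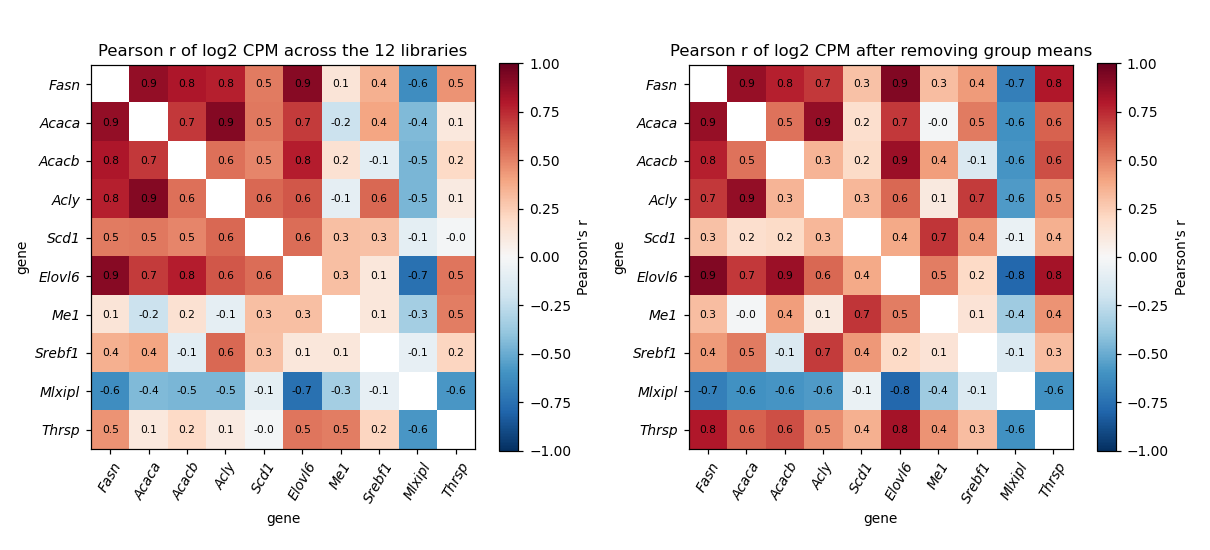
Pearson's r of log2 CPM between each pair of the 10 genes over the 12 libraries (left) and after the mean of each group was removed (right); red is positive and blue negative. Fasn, Acaca, Acacb, Acly and Elovl6 form a red block, with 0.919 for Acaca and Acly, and the Mlxipl row is blue throughout, down to -0.746 with Elovl6.

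The mean z-score of the 10 members gives each library a single position. This mean went most with Fasn (r = 0.922), Elovl6 (0.847), Acaca (0.811) and Acly (0.809), which are part of it. Me1 (0.333), Thrsp (0.445) and Srebf1 (0.509) followed it loosely, and Mlxipl ran against it (-0.501). DKO 4 was highest at 0.951, followed by TKO 1 at 0.744 and control 4 at 0.437, and the lowest were control 2 at -0.990 and TKO 3 at -0.707. Control livers thus stood among the 3 highest and the 2 lowest libraries. Of the genes outside the list, those most like this profile were Gpam (r = 0.917), which starts glycerolipid synthesis from the fatty acids made, then Fam117a (0.906), Slc25a44 (0.898), a mitochondrial carrier, and the chaperone genes Hsph1 (0.896) and Stip1 (0.895), each over 12 libraries. Gpam was at 188, 131, 189 and 203 CPM in the control livers and 236, 333, 208 and 416 CPM in DKO, with no overlap, and its difference of 0.75 in log2 did not pass (standard error 0.268, adjusted p = 0.119 by edgeR). In TKO it was at 312, 185, 154 and 219 CPM, across the control range.

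RefSeq promoter windows (GRCm38.p6, 250 bases before to 50 after a start) were given for 9 of the 10 members, 13 windows in all. They were read for the letters that pathway regulators are known to bind, on both strands. CCAAT, bound by NF-Y, which cooperates with SREBP at lipogenic promoters, was in 8 of 13 windows and 7 members, where 37.4% of 32851 windows of all genes held it. The sterol element TCACNCCAC was in 1 window, of Mlxipl (1.24% of all windows). The E-box CACGTG was in another Mlxipl window (7.15%). GGGCGG, an Sp1 motif, was in 5 windows (35.7%), and a pair of E-boxes 5 bases apart, the layout of a carbohydrate response element, in 0 (0% of all windows). Of the E2F spellings TTTCCCGC, TTTCGCGC, TTTGCCGC and TTTGGCGC, 1 was found, in Fasn (2.26%). A window with no match says only that these letters are not in it. Stretches that hold some of these matches are shown for the synthase, the second carboxylase, Thrsp and the factor genes. They run 5′ to 3′ on the gene's strand, with the match in capitals. Not shown are a CCAAT match in another Srebf1 window (at -166), one in the Mlxipl window with the E-box (at -173), and the Sp1 matches.
Fasn, chr11:120824598-120824707, minus strand, -160 to -51 from the start, with the E2F spelling and then the CCAAT boxes, of which the first and the last are read on the opposite strand and the last overlaps with the one before it: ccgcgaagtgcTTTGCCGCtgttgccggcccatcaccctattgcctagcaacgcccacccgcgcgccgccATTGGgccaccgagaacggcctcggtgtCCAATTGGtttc
Thrsp, chr7:97417616-97417635, minus strand, CCAAT on the opposite strand: gctgggATTGGctcaaaaca
Thrsp, chr7:97417591-97417610, minus strand, CCAAT: gtgttgctCCAATggttggg
Acacb, chr5:114165418-114165447, plus strand, CCAAT: agtacaagggaccCCAATagccttgcccca
Srebf1, chr11:60210487-60210516, minus strand, CCAAT on the opposite strand: gcggcgcggctgctgATTGGccatgtgcgc
Mlxipl, chr5:135106741-135106770, plus strand, sterol element: caggatcagtggttTCACACCACgctcact
Mlxipl, chr5:135089780-135089809, plus strand, E-box: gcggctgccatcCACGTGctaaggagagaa

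Other genes of the pathway were read from 6 lists of 63 genes, of which 60 passed the filter on low counts. In DKO, 2 of the 60 were called by edgeR, Scd2 higher and Ppargc1b lower, and in TKO 0 were. These 2 are 3.33% of the 60, where 2.42% of all tested genes were called. DESeq2 called 5 in DKO (8.33%, against 10.4% of all genes), Scd2, Pnpla3 and Hilpda higher and Ppargc1b and Elovl3 lower, and 2 in TKO, Pnpla3 and Fgf21 (3.33%, against 3.49%). The shares were thus near those of all genes. Between TKO and DKO neither tool called any.

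Scd2, the desaturase paralog that is low in adult liver, was at 50.4, 38.4, 64.6 and 63.4 CPM in the control livers, 193, 288, 94.5 and 770.0 CPM in DKO, and 217, 155, 52.6 and 77.0 CPM in TKO. All 4 DKO tumors were above all 4 control livers, and the TKO tumors overlapped with them. Scd2 had a log2 fold change of 2.63 in DKO (standard error 0.602, adjusted p = 0.0486 by edgeR, 0.000329 by DESeq2) and of 1.21 in TKO (adjusted p = 0.324). The edgeR call in DKO was narrow. It held without DKO 3, TKO 3 or TKO 4 and was lost without any 1 of the other 9 libraries (adjusted p = 0.0536 to 0.145). The log2 fold change was 1.82 without DKO 4. In those 9 fits fewer of all genes were called as well, 0 to 292 against 336. Scd2 remained far below Scd1, with a ratio of counts of 0.0112 to 0.0237 in the control livers and 0.0200 to 0.0980 in DKO. How reads shared by the paralogs were counted is not given in the sources used here.

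Among the 15 lipogenic regulators, Ppargc1b, a coactivator of SREBP-1 and of mitochondrial genes, was lower in DKO. It was at 6.37, 17.2, 17.3 and 11.3 CPM in the control livers, 3.37, 3.08, 4.14 and 2.41 CPM in DKO, and 9.03, 14.6, 9.96 and 3.73 CPM in TKO. All DKO values were below all control values, and the difference was -1.998 in log2 (standard error 0.405, adjusted p = 0.0425 by edgeR, 0.000211 by DESeq2). The edgeR call was lost without any 1 of control 2, control 3, control 4, DKO 1, DKO 2, DKO 4 or TKO 1 (adjusted p = 0.0534 to 0.134). In those fits fewer of all genes were called as well, 0 to 96 against 336. The other 14 regulators, among them Scap, Insig1, Nr1h3 and Pparg, were not called in either comparison, and the list's median was 0.15 in DKO and 0.09 in TKO.

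Of the 8 genes for precursor and NADPH supply, 0 were called, with medians of 0.29 in DKO and 0.13 in TKO. Of the 10 tested genes of triglyceride assembly, 0 were called, the medians were -0.20 and -0.03, and the largest change was that of Acsl3, an acyl-CoA synthetase, at 1.06 in DKO (adjusted p = 0.122). The 11 genes of chain elongation and desaturation, with Scd2 among them, had medians of 0.24 and 0.53. Elovl3, an elongase that is known to follow the daily cycle in liver, was at 18.2, 61.5, 62.3 and 15.2 CPM in the control livers and 3.91, 5.37, 5.32 and 3.36 CPM in DKO, which is -3.13 in log2 (adjusted p = 0.0806 by edgeR, 0.0142 by DESeq2).

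Pnpla3, a lipid droplet hydrolase gene that SREBP-1c and ChREBP are known to induce, had the largest difference of the 10 tested lipid droplet genes. It was at 5.85, 1.11, 2.78 and 5.49 CPM in the control livers, 39.7, 56.4, 17.4 and 32.9 CPM in DKO, and 117, 32.9, 2.22 and 5.51 CPM in TKO. The DKO tumors did not overlap with the control livers, while TKO 3 and TKO 4 lay among them. The log2 fold changes were 3.23 in DKO and 3.34 in TKO (standard error 0.996 and 0.999). They were not called by edgeR with all 12 libraries (adjusted p = 0.0860 and 0.156) but were by DESeq2 (adjusted p = 0.0187 and 0.0303). In DKO edgeR called Pnpla3 with only the 8 libraries of the comparison (adjusted p = 0.0171) and without TKO 3 (0.0440). In TKO the log2 fold change depended on TKO 1. It was 1.79 without that library (adjusted p = 0.356 by edgeR), and without TKO 3 it was 3.73 and was called (0.0498). Of the 6 genes of the fructose and glucose response, 0 were called by edgeR, and Fgf21, a liver hormone gene, had the largest change, 1.36 in DKO and 2.11 in TKO (adjusted p = 0.232 and 0.169), from 15 to 35 counts in the control livers.

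**Figure D4:**
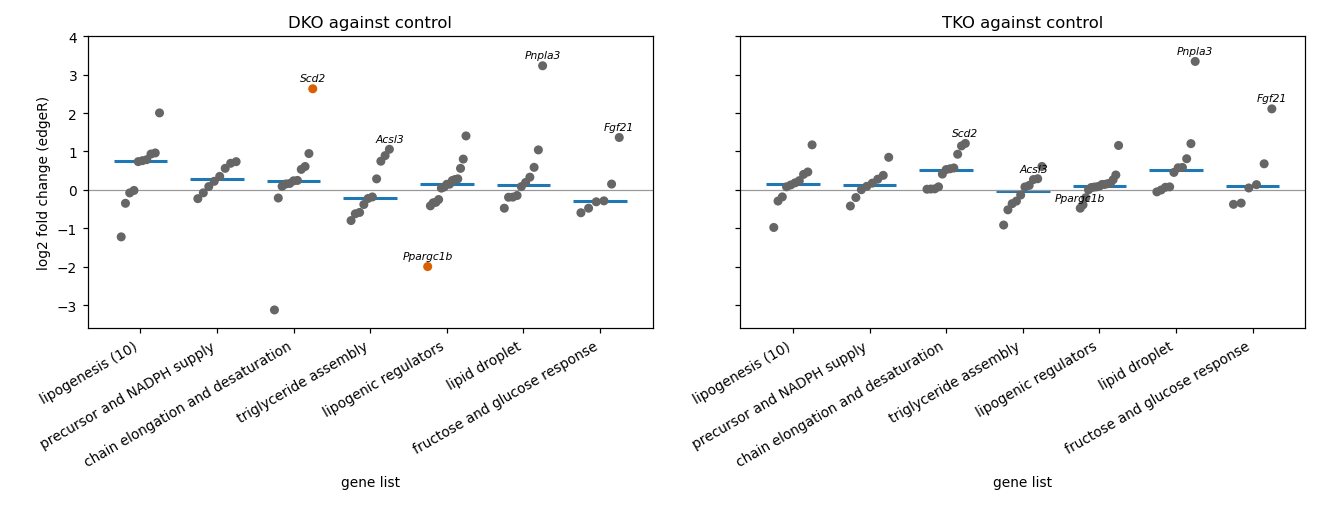
Log2 fold change (edgeR) of each tested gene in the 10 lipogenesis genes and the 6 pathway lists, for DKO (left) and TKO (right) against control livers; orange marks an adjusted p under 0.05, and the blue line is the median of the list. Only Scd2 at 2.63 and Ppargc1b at -1.998, both in DKO, are orange.

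Feeding and time of day are known to move this pathway, and neither is given in the labels. The study reports that its mice died or were killed when moribund, and that tumors were taken at the end of life. The part of this condition in the levels was not tested. Igfbp1, a gene of the fasting response that insulin is known to suppress, was at 20.003, 40.4, 11.6 and 29.4 CPM in the control livers and 164, 352, 132 and 504 CPM in DKO, which is 3.51 in log2 (standard error 0.739, adjusted p = 0.0425 by edgeR). This call was lost without any 1 of the 4 control livers, DKO 1, DKO 2, DKO 4 or TKO 1 (adjusted p = 0.0511 to 0.134). In those fits fewer of all genes were called as well, 0 to 166 against 336. In TKO Igfbp1 was at 26.9, 195, 21.1 and 56.6 CPM. The other 6 genes of that list were not called by edgeR, and the median of the 7 was -0.89 in DKO. DESeq2 called 3 of the 7 there, Igfbp1 higher and 2 lower, where it called 10.4% of all genes. Among the 2 was Angptl4, an inhibitor of lipoprotein lipase, at -1.27 in log2 (adjusted p = 0.0195 by DESeq2, 0.0806 by edgeR). The unadjusted p was under 0.05 for 4 of the 7 by edgeR, where 24% of all genes were under it. The 11 clock genes were not called by edgeR, with 8 at an unadjusted p under 0.05 in DKO (24% of all genes), and DESeq2 called 3 higher and 4 lower there (10.4% of all genes in either direction). The largest change was that of Npas2, from 5 to 11 counts in the control livers and 15 to 210 counts in DKO (adjusted p = 0.0538 by edgeR).

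Thrsp was lowest in the libraries with the most Arntl, a core clock gene, a pattern noticed after the values were seen. The 4 libraries with the highest Arntl were DKO 1 at 34.5 CPM, DKO 2 at 33.5, TKO 3 at 19.5 and TKO 2 at 8.66. They were also the 4 with the lowest Thrsp, at 81.8 to 166 CPM, where the other 8 libraries had 336 to 1345 CPM. For the other 9 members, only 1 or 2 of those 4 libraries were among their 4 lowest. Dbp, a clock output gene, was at 4.98, 4.90, 13.3 and 47.5 CPM in DKO 1, DKO 2, TKO 3 and TKO 2. It was 13.3 to 124 CPM in the other 8 libraries, so TKO 2 did not have a low Dbp. Not all clock genes moved with Thrsp. Nr1d1 was at 118 CPM in TKO 3 and 100.3 CPM in TKO 2, the second and the third highest of the 12 libraries. The part of the clock in the Thrsp levels was not tested.

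**Figure D5:**
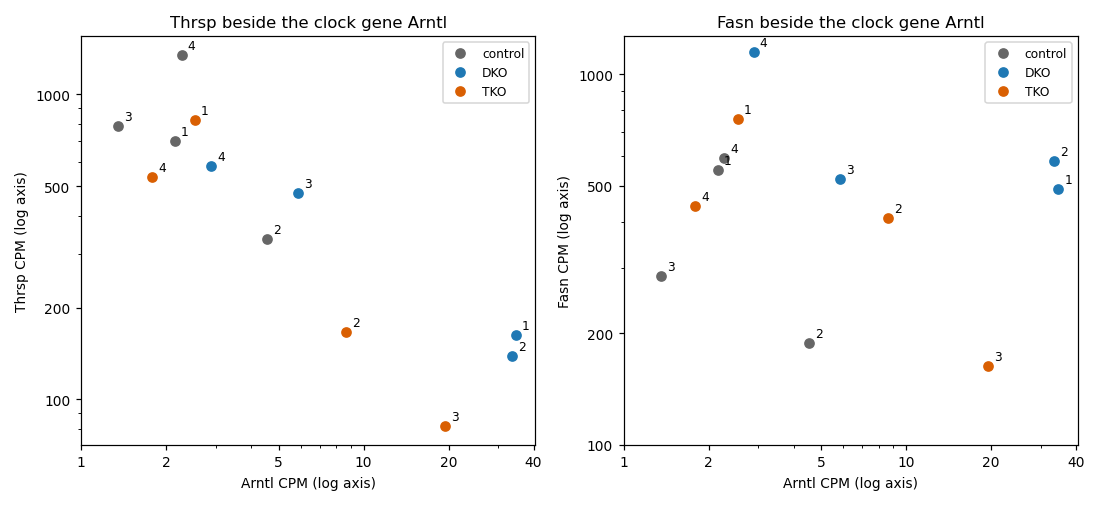
CPM of Thrsp (left) and Fasn (right) against CPM of the clock gene Arntl in each of the 12 libraries, log axes, coloured by group and numbered by replicate. Thrsp is 81.8 to 166 CPM in the 4 libraries with the most Arntl and at least 336 CPM in the others, while Fasn in the same 4 libraries runs from 163 to 583 CPM.

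Lipogenic genes are also high in adipocytes, and Fabp4, which adipocytes, endothelial cells and macrophages express, was higher in the tumors, at 7.44 to 58.0 CPM in DKO and 5.06 to 24.4 in TKO against 2.34 to 3.79 in the control livers. The other 5 adipocyte markers, Adipoq, Lep, Plin1, Retn and Cfd, had 0 to 2 counts in every library. The macrophage list of 7 genes, led by Clec4f, summed to 199 to 531 CPM in the control livers, 63.3 to 439 in DKO and 132 to 584 in TKO. The endothelial list of 5 genes summed to 97.7 to 139 CPM in the control livers, 109 to 165 in DKO and 118 to 243 in TKO. Of its genes, DESeq2 called Pecam1 and Lyve1 higher in DKO (adjusted p = 0.0130 and 0.0315), where it called 10.4% of all genes. edgeR called neither (0.0693 and 0.119). Of the 5 genes, 3 had a positive log2 fold change in DKO. The mean of Clec4g was 37.3 CPM in the control livers and 21.2 in DKO, and that of Stab2 29.4 and 22.0. Pecam1 was at 10.6 to 22.2 CPM in the control livers, 21.8 to 69.4 in DKO and 24.4 to 33.2 in TKO, and Lyve1 at 0.982 to 2.78, 0.942 to 28.5 and 4.47 to 8.58 CPM. The part of other cell types in the members' levels was not tested. The stellate, biliary and lymphocyte lists summed to 144 to 512, 24.4 to 108 and 8.42 to 29.1 CPM over all 12 libraries.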

How the data were processed

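Poly(A) RNA of 12 livers or liver tumors was sequenced on a SOLiD instrument. Reads were aligned by the authors to the mm9 genome (BWA) and summarized per gene (FeatureCounts). The table they deposited holds raw counts per Entrez gene, not normalized. Versions, strand setting and handling of multi-mapping reads are not given in the sources used here. Groups and replicate numbers follow the sample labels, and nothing was pooled.

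The 10 members were matched by Entrez identifier through a RefSeq gene table, in which 24191 of 26301 identifiers (99.4% of counts) had a symbol. Positions and exon lengths are from GENCODE vM1 (mm9), and promoter sequences from RefSeq (GRCm38.p6). Genes were compared with edgeR 4.0.16 in R 4.3.3, using TMM, filterByExpr (13882 genes kept, all 10 members among them), all 12 libraries in 1 model, the quasi-likelihood test and Benjamini-Hochberg adjustment over all tested genes at 0.05. The standard error is the log2 fold change divided by the square root of F, and 95% intervals use the t quantile at the test's degrees of freedom. DESeq2 1.42.0 and limma 3.58.1 (voom) were alternatives, with other scalings, filters, samples and each library left out. The script was tested on simulated data. Log2 CPM used a prior count of 2.

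The members and gene lists were chosen with earlier results of these data known. Named genes outside the members were those called in a list, or its largest change in DKO where none was (1 such gene is not reported here), the 5 genes most like the members' mean profile, and the deleted genes. Elovl3, Hilpda, Arntl, Dbp, Nr1d1, Angptl4, Axin2, Oat, Pecam1, Lyve1, Clec4g, Stab2 and Fabp4 were named after their values were seen. Each library is 1 mouse as far as the labels say, and the SD between libraries holds both mice and counting error. Some libraries share a letter in their label codes, within and between groups. The meaning of the letters is not given, and they were not used as a block. Control 2 and control 3 were the most alike of the control livers, with a chi-square per degree of freedom of 20.0 between their counts. The other pairs of control livers were at 65.9 to 77.0.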

Additional observations from a re-analysis of the deposited data

Results flagged for a closer look

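Single libraries stood far from the other 3 of their group for 3 values of the members, by Dixon's test of the gap to the nearest library over the group's range at its 95% critical value for 4 libraries. Fasn in DKO 4 was at 1149 CPM, a gap of 0.858 of the range. Acacb in DKO 4 was at 211 CPM, a gap of 0.835 of the range. Acly in DKO 2 was at 450.3 CPM, a gap of 0.898 of the range. The test was made in 30 groups, and chance alone flags about 1 in 20 of them. DKO 4 also had the highest Elovl6 of all 12 libraries (235 CPM), the highest Scd2 (770.0 CPM), the highest Fabp4 (58.0 CPM) and the lowest summed periportal markers (116 CPM).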

How the results depend on the processing

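All fits called 0 members in all 3 comparisons except DESeq2 (1, Acacb, DKO against control) and voom with quality weights (1, Acaca, DKO against control). The count of all genes called in DKO against control (336) was 1518 with DESeq2, 59 with total counts as the only scaling, 759 with only the 8 libraries of the comparison, 1804 with voom, 1460 at an adjusted p under 0.1, and 0 to 651 when each library in turn was left out (0 without control 2 or control 3, 5 to 7 without control 4, DKO 1, DKO 2 or DKO 4, 96 without TKO 1, 166 without control 1 and 651 without TKO 3). In TKO against control (12) it was 507 with DESeq2, 22 without a filter, 97 with voom, 80 at 0.1, and 0 to 231 with a library left out (231 without TKO 3, 18 without DKO 3, 10 without TKO 4 and 0 to 2 without any of the other 9). In TKO against DKO (0) it was 56 with DESeq2. The pathway lists had 5 calls instead of 2 in DKO and 2 instead of 0 in TKO with DESeq2. The causes were not tested.

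The log2 fold change of Acacb with DESeq2 was 2.00 and that of Acaca with voom 1.09. Values near 0 changed sign. Mlxipl in DKO against control was 0.035 with total counts and 0.0039 with at least 10 counts in every library, and Me1 in TKO against control was 0.020 with total counts. With a library left out, the ranges that crossed 0 were, in DKO against control, -0.19 to 0.10 for Mlxipl and -0.30 to 0.20 for Srebf1. In TKO against control they were -0.27 to 0.40 for Fasn, -0.091 to 0.59 for Acly, -0.0014 to 0.53 for Scd1, -0.14 to 0.36 for Srebf1 and -0.35 to 0.079 for Me1. In TKO against DKO they were -0.066 to 0.51 for Me1, -0.38 to 0.64 for Thrsp and -1.35 to 0.086 for Acacb (0.086 without DKO 4). Scaling by total counts moved the median of all genes from 0.02 to 0.17 in TKO against control and from 0.01 to 0.11 in TKO against DKO.

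Same-numbered libraries are different mice, so the numbers were not taken as pairs. Their deviations from the group means correlated above 0.1 in 5 of 12 pairs (median 0.02, highest 0.37 for DKO 3 with TKO 3). Of the 12 libraries, 6 correlated best with a library of their own number, so these values alone do not settle the pairing. With the replicate block, 509 genes were called in DKO against control and 1 in TKO against control, 0 members were called, and Mlxipl in DKO was 0.046. Scd2 in DKO was no longer called with the block (adjusted p = 0.0670) or with total counts (0.0627). A sex covariate was not run, since all 12 libraries had more Y-linked than Xist counts. With 4 libraries a group and standard errors of 0.245 to 0.702, changes of the size seen in most members could not be told from the spread.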
